A study of Mus musculus with 2 samples.

Results

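Neurotrophins are secreted growth factors that act on neurons and glia through a small family of receptors, and 6 of their genes were followed here: Bdnf, Ntf3, Ntrk2, Ntrk3, Ngfr and Sort1. They were taken by gene symbol, and each symbol matched 1 of the 28692 genes in the count tables. The cells came from the lateral hypothalamic area of C57BL/6 mice at postnatal day 30, a region that holds orexin and melanin-concentrating hormone neurons among many other cell types. Tissue was cut from brain slices, dissociated and run as droplet single-cell RNA-seq (10x Chromium), in which each mRNA molecule is counted near its 3′ end by a unique molecular identifier (UMI). There were 2 libraries, one labelled male, which pooled 3 animals, and one labelled female, which pooled 2, all littermates with no genetic change or treatment given.

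BDNF binds the receptor tyrosine kinase TrkB, made by Ntrk2, and neurotrophin-3, made by Ntf3, prefers TrkC, made by Ntrk3. The precursor proteins bind the p75 receptor, made by Ngfr, together with sortilin, made by Sort1, which also sorts proteins from the Golgi to lysosomes in many cells. In the mouse hypothalamus, BDNF and TrkB are known for limiting food intake and body weight, and Ntrk2 also gives rise to a shortened TrkB without the kinase domain, which astrocytes are known to make.

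There were 3439 cell barcodes with 23151801 UMIs in the library labelled male and 3793 barcodes with 27437142 UMIs in the one labelled female, at medians of 5718 and 6289 UMIs per barcode. The sex labels did not match the data: Xist, the RNA that silences an X chromosome in females, had 20641 UMIs in the library labelled male and 30 in the one labelled female, whereas the Y-linked Ddx3y had 0 and 4524 UMIs. The libraries were therefore used as 2 replicates of the tissue and are named by their labels, and no statement on sex is made. The libraries shared 18 barcode sequences. After filtering, 3186 and 3520 cells remained, of which 2035 and 2258 were neuron-like. Among these, 984 and 1107 were inhibitory (a UMI of the GABA transporter Slc32a1 and none of the glutamate transporter Slc17a6) and 709 and 781 were excitatory (the reverse). Hcrt-high neurons (83 in each library) and Pmch-high neurons (85 and 61) gave at least 0.3% of their UMIs to the orexin or the melanin-concentrating hormone gene. The remaining excitatory neurons, below this threshold for both peptides, numbered 598 and 684. Levels are given as CPM, a gene's UMIs scaled to the UMI total of the group, and where 2 values stand together the first is from the library labelled male and the second from the library labelled female. A protocol of this kind counts 3′ ends, so gene length does not enter the CPM. Intervals are exact 95% Poisson intervals for levels and Clopper-Pearson intervals for shares, and they cover counting error alone. Where a count is 0, the limit given is the level or share that 3 counts would make, which lies below the upper end of the 95% interval.

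In the filtered cells Ntrk2 had 13586 UMIs, Ntrk3 8374, Sort1 3982, Bdnf 1203, Ngfr 137 and Ntf3 11. All 6 genes had UMIs in both libraries. Bdnf lies on chromosome 2 (109674700 to 109727007, plus strand), Ntf3 on chromosome 6 (126101412 to 126166910, minus), Ntrk2 on chromosome 13 (58806569 to 59133970, plus), Ntrk3 on chromosome 7 (78175959 to 78738012, minus), Ngfr on chromosome 11 (95568818 to 95587735, minus) and Sort1 on chromosome 3 (108284082 to 108361511, plus), in GRCm38 with GENCODE M21 gene models. The coding transcripts of Ntrk2 have 6 different 3′ ends spread over 255221 bases, and those of Ntrk3 have 6 over 401577 bases. The deposited counts sum them per gene, so full-length and shortened receptors could not be told apart. The annotated gene Gm9885, with 572 UMIs, lies antisense to Ntrk3, and how reads were assigned to strands is not given in the sources used here.

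Bdnf, the ligand of TrkB, was found mainly in excitatory neurons. Neuron-like cells, 63.9% and 64.1% of the cells, held 99.1% and 96.8% of its UMIs. Excitatory neurons alone, 22.3% and 22.2% of the cells, held 74.7% and 69.5%. The other excitatory neurons had 73.5 and 70.3 CPM (358 and 407 UMIs), Hcrt-high neurons 36.0 and 42.1 CPM (41 and 57 UMIs), Pmch-high neurons 9.07 and 5.65 CPM (13 and 6 UMIs) and inhibitory neurons 7.47 and 7.21 CPM (59 and 68 UMIs). Neurons with UMIs of both transporters had 32.7 and 48.4 CPM, and those with neither had 24.9 and 20.7 CPM. Of 10 pairs of neighbours in the order of 11 cell groups by Bdnf level, the counting intervals were separate for 1, the other excitatory neurons above the Hcrt-high neurons. The level of Hcrt-high neurons was followed by microglia-like cells (11.7 ± 3.61 CPM, mean ± SD over 2 libraries), astrocyte-like cells (7.79 ± 6.20 CPM), Pmch-high neurons and inhibitory neurons, none of which was separated from its neighbour by counting error.

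A Bdnf UMI was found in 30.04% and 31.0% of excitatory neurons and in 4.98% and 4.07% of inhibitory neurons. Mature oligodendrocyte-like cells, a type that should lack the gene, had one in 0.164% and 0.839% of cells, at median depths of 4170 and 4641.5 UMIs against 8359 and 8345 in excitatory neurons. With each cell thinned to 3000 UMIs the shares were 14.7% and 15.7% of excitatory neurons, 1.91% and 1.39% of inhibitory neurons and 0% and 0.348% of mature oligodendrocyte-like cells. Among the other excitatory neurons, 114 and 115 cells carried 1 Bdnf UMI, 63 and 89 carried 2 to 4, and 12 and 10 carried 5 or more, up to 12 and 7. Bdnf transcripts in these neurons were thus at or near the limit of detection per cell, and a cell with no UMI was not shown to lack them.

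**Figure D1:**
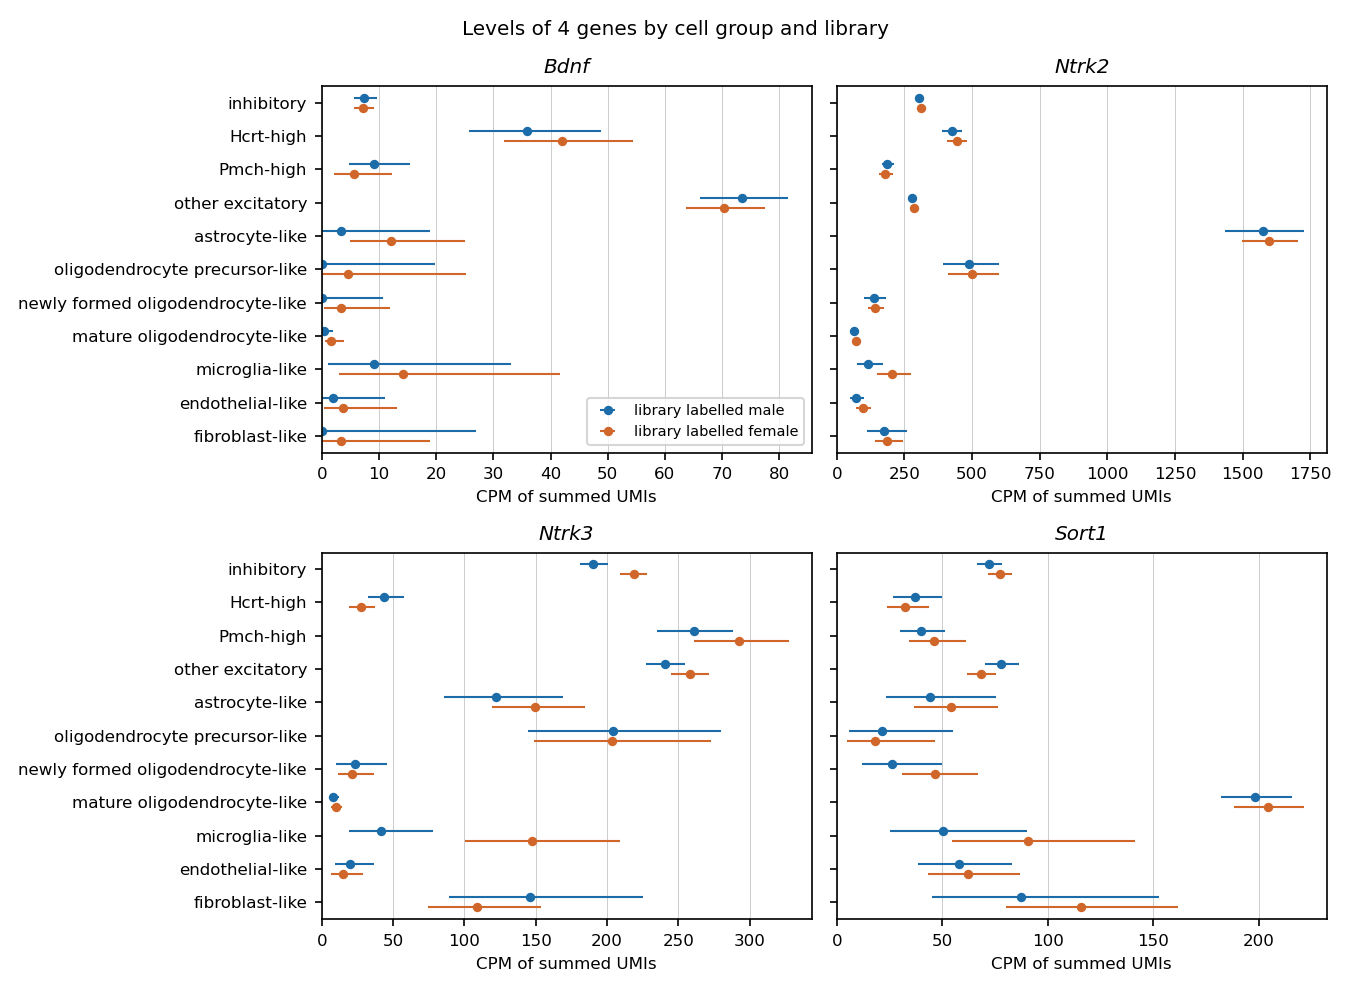
Level of each gene (CPM) in 4 neuron groups and the glial and vascular classes, with a point and an exact 95% Poisson interval for each library. Bdnf peaked in the other excitatory neurons at 73.5 and 70.3 CPM, Ntrk2 in astrocyte-like cells at 1577 and 1598 CPM, and Sort1 in mature oligodendrocyte-like cells at 198 and 204 CPM.

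Excitatory neurons were not uniform in Bdnf. At a finer clustering, in which the 6 genes took no part, the cluster led by Trh, Ghrh and Onecut2 (56 and 52 cells) had 117 and 102 CPM. The clusters led by Adcyap1, Gda and Synpr (88.0 and 72.4 CPM), by Ebf3, Nxph4 and Nrn1 (57.9 and 65.7 CPM) and by Nrn1, Syt2 and Penk (49.5 and 70.4 CPM) lay below it. Differences between these clusters were not tested. The Hcrt cluster had 37.0 and 45.4 CPM and the Pmch cluster 12.3 and 7.66 CPM. The 9 inhibitory clusters ranged between 0 and 12.1 CPM, so no inhibitory cluster reached the Bdnf level of any excitatory cluster other than the Pmch cluster in either library. A cluster left unnamed, led by Cck and Sst (85 cells in each library), had 59.7 and 46.6 CPM and was counted as neither inhibitory nor excitatory. At the main, coarser clustering the cluster led by Ebf1, Npy and Npw had 26.2 and 16.5 CPM. It held 42.7% and 38.8% inhibitory and 19.5% and 23.5% excitatory neurons. The cluster led by Bcl11b and Pthlh, 65.9% and 71.1% inhibitory, had 13.2 and 19.9 CPM there. Both lay below the Hcrt cluster of that clustering, at 50.1 and 45.6 CPM.

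**Figure D2:**
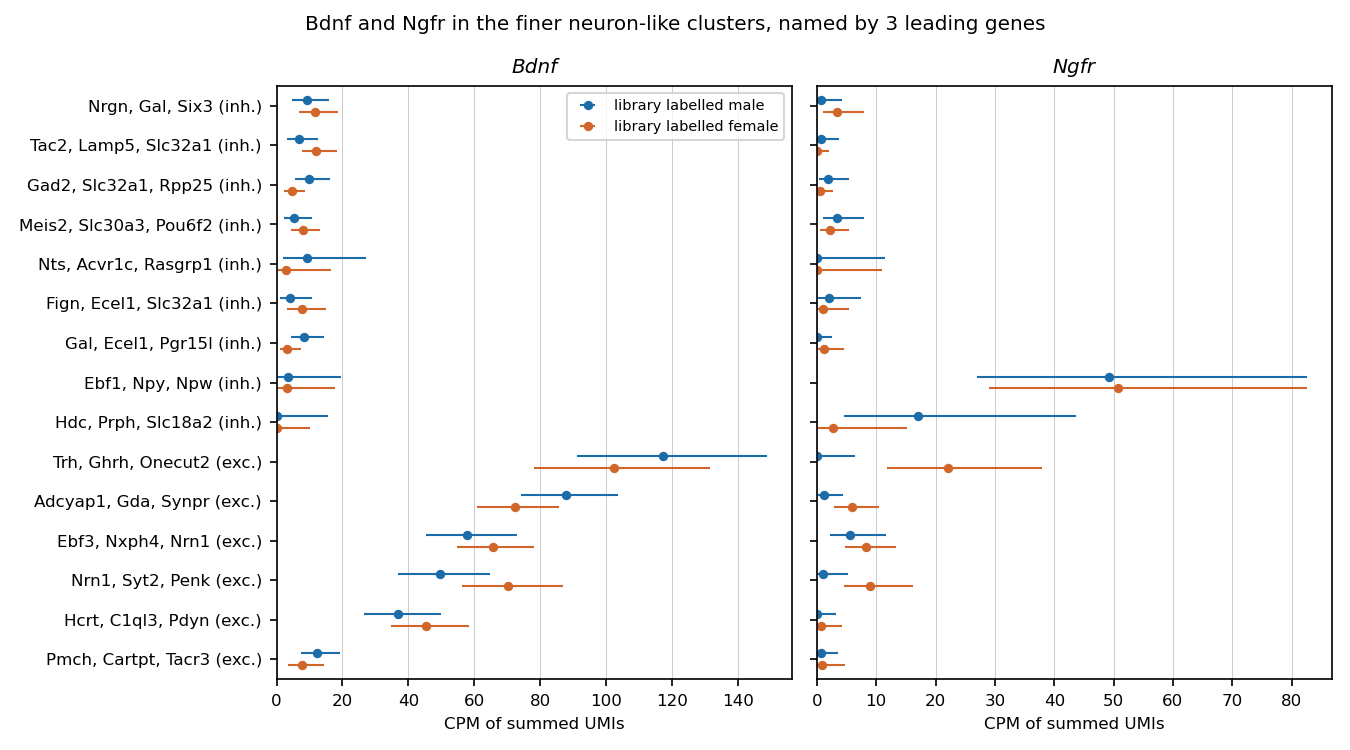
Levels of Bdnf and Ngfr (CPM) in the finer neuron-like clusters, 1 of which is not drawn, inhibitory above excitatory, each named by 3 leading genes, with a point and an exact 95% Poisson interval for each library. The 9 inhibitory clusters lay between 0 and 12.1 CPM of Bdnf and the Trh cluster at 117 and 102 CPM, whereas Ngfr was highest in the Ebf1 cluster at 49.3 and 50.8 CPM.

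Bdnf also varied between neurons grouped by the peptide they make, some of which fall in more than 1 group. These groups differ in transporters: 21 and 14 Trh-high neurons were excitatory and 0 inhibitory. By contrast, 20 and 13 Gal-high and 9 and 13 Nts-high neurons were inhibitory. Of the Cartpt-high neurons, 48 and 44 were also in another peptide group. The levels by peptide were thus not separated from those by transporter. Neurons high in Trh, the thyrotropin-releasing hormone gene, had 131 and 140 CPM (34 and 28 UMIs in 25 and 23 cells), and 52.0% and 65.2% of them carried a UMI. Tac1-high neurons had 73.3 and 20.3 CPM in 14 and 12 cells, values that differ between the libraries in a small group. Sst-high neurons had 20.4 and 28.9 CPM and Cartpt-high neurons 8.03 and 9.55 CPM. No Bdnf UMI was found in Gal-high neurons (28 and 20 cells), which allows up to 18.7 and 26.1 CPM, or in Nts-high neurons (11 and 13 cells), which allows up to 36.0 and 20.99 CPM.

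Ntf3, the ligand of TrkC, was barely detected. Inhibitory neurons held 2 UMIs in each library, neurons with both transporters 1 and 2, fibroblast-like cells 0 and 3 and endothelial-like cells 0 and 1. Of the 3 UMIs in the fibroblast-like class, 2 lay in a finer cluster led by the smooth muscle genes Acta2 and Myl9 and 1 in the finer fibroblast-like cluster. That Acta2 cluster, named mural-like, made up 9 and 33 of the 31 and 66 fibroblast-like cells. Likewise, 54 and 62 of the 129 and 130 endothelial-like cells lay in a mural-like cluster led by Rgs5 and Higd1b. All levels given for these 2 classes thus cover mural-like cells as well. Excitatory neurons had 0, which allows a level of up to 0.439 and 0.396 CPM. Ntf5, which makes another neurotrophin that binds TrkB, was also scarce, with 2 and 4 UMIs. Neither gene had enough counts for a test in any comparison.

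Ntrk2, the TrkB gene, was highest in astrocyte-like cells. Their level was 1577 and 1598 CPM (464 and 919 UMIs), and 94.1% and 95.4% of them carried a UMI at median depths of 2262 and 2571 UMIs. Mature oligodendrocyte-like cells were at 64.4 and 71.3 CPM, with a UMI in 24.5% and 27.2% of cells. The astrocyte-like cells exceeded the next group, the oligodendrocyte precursor-like cells at 489 and 498 CPM, beyond counting error. Under a strict cell filter, which left 47 and 42 astrocyte-like cells, their mean was 661 CPM and still the highest. Hcrt-high neurons had 425 and 443 CPM, inhibitory neurons 304 and 311 CPM, the other excitatory neurons 277 and 284 CPM and Pmch-high neurons 187 and 179 CPM. Intervals were separate between Hcrt-high and inhibitory neurons and between the other excitatory and Pmch-high neurons, and between inhibitory and other excitatory neurons the libraries were separate but the intervals overlapped. Neuron-like cells, being the most numerous, still held 84.9% and 79.9% of all Ntrk2 UMIs, and astrocyte-like cells held 7.80% and 12.04%.

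Ntrk3, the TrkC gene, was highest in neurons and oligodendrocyte precursors. Pmch-high neurons had 261 and 293 CPM, the other excitatory neurons 241 and 258 CPM, inhibitory neurons 191 and 219 CPM and oligodendrocyte precursor-like cells 204 and 204 CPM. Astrocyte-like cells had 122 and 150 CPM. Hcrt-high neurons stood low, with 43.9 and 27.3 CPM (50 and 37 UMIs), and 33.7% and 30.1% of them carried a UMI although they were the deepest neurons, at medians of 16101 and 18593 UMIs. The other excitatory neurons carried one in 74.9% and 78.2% of cells at 7833 and 8027 UMIs, and mature oligodendrocyte-like cells in 3.45% and 4.36%. No neighbours in the order of the 11 groups were separated by their counting intervals. Between finer neuron clusters, the Trh and Ghrh cluster was at 337 and 300 CPM and the Hcrt cluster at 44.0 and 24.95 CPM.

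Ngfr, the p75 gene, was rare and spread over many finer clusters, with its highest level in the one led by Ebf1, Npy and Npw. This cluster held 53 and 50 cells. Of these, 52.8% and 52.0% were inhibitory and 1.89% and 2% excitatory. The cluster had 49.3 and 50.8 CPM of Ngfr from 14 and 16 UMIs, with intervals of 26.9 to 82.7 and 29.0 to 82.5 CPM. These UMIs lay in 6 and 8 cells, and without the cell with the most, which held 7 and 4 UMIs, the levels were 25.4 and 38.8 CPM. Inhibitory neurons as a whole had 3.29 and 1.59 CPM, the other excitatory neurons 2.26 and 8.81 CPM, Hcrt-high neurons 0 and 0.738 CPM and Pmch-high neurons 2.79 and 0.942 CPM. The Trh and Ghrh cluster had 0 and 22.2 CPM (0 and 13 UMIs), so its Ngfr rested on the library labelled female. The finer cluster led by Ebf3 held 7 and 16 UMIs in 3 and 10 cells, and that led by Adcyap1 and Gda 2 and 11. The one led by Nrn1 and Syt2 held 1 and 11, with 9 of the 11 in 1 cell. No Ngfr UMI was found in the astrocyte-like, microglia-like, endothelial-like, oligodendrocyte precursor-like or newly formed oligodendrocyte-like cells of either library. The limits are 10.2 and 5.22 CPM in astrocyte-like, 13.8 and 14.3 CPM in microglia-like and 5.98 and 5.48 CPM in endothelial-like cells, with mural-like cells among the last. They are 16.1 and 13.6 CPM in precursor-like and 8.72 and 4.97 CPM in newly formed cells. All lie above the level of inhibitory neurons, so less Ngfr in these cells than in neurons was not shown.

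Sort1, the sortilin gene, was highest in mature oligodendrocyte-like cells, at 198 and 204 CPM (539 and 605 UMIs), and the interval was separate from that of the next group, the fibroblast-like cells at 87.5 and 116 CPM. Mature oligodendrocyte-like cells were 19.1% and 16.9% of cells and held 30.1% and 27.6% of Sort1 UMIs. Inhibitory neurons had 72.1 and 77.1 CPM, the other excitatory neurons 78.04 and 68.2 CPM, Pmch-high neurons 39.8 and 46.2 CPM and Hcrt-high neurons 36.8 and 32.5 CPM. Oligodendrocyte precursor-like cells were the lowest, with 21.5 and 18.1 CPM from 4 UMIs in each library.

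Along the oligodendrocyte lineage Ntrk2 and Sort1 ran in opposite directions, while Ntrk3 was found mainly in the precursors. Ntrk2 was at 489 and 498 CPM in precursor-like cells, 137 and 143 CPM in newly formed and 64.4 and 71.3 CPM in mature oligodendrocyte-like cells. Ntrk3 was at 204 and 204, 23.3 and 21.5, and 7.73 and 9.80 CPM in the same order. Sort1 was at 21.5 and 18.1, 26.2 and 46.4, and 198 and 204 CPM. The newly formed class held 9 and 28 Sort1 UMIs in all, so the levels of its finer clusters rest on few counts. The finer cluster led by Gpr17, a receptor of early oligodendrocytes, had 10.6 and 12.4 CPM of Sort1. The one led by Cnksr3 and Nfasc had 45.3 and 69.2 CPM. Within the mature cells, Sort1 averaged 137 CPM in the cluster led by Mal, Lpar1 and Opalin, 218 CPM in the cluster led by Car2, Trf and Hapln2 and 235 CPM in the cluster led by Klk6. Stages were assigned from clusters, and these levels were described without a test.

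**Figure D3:**
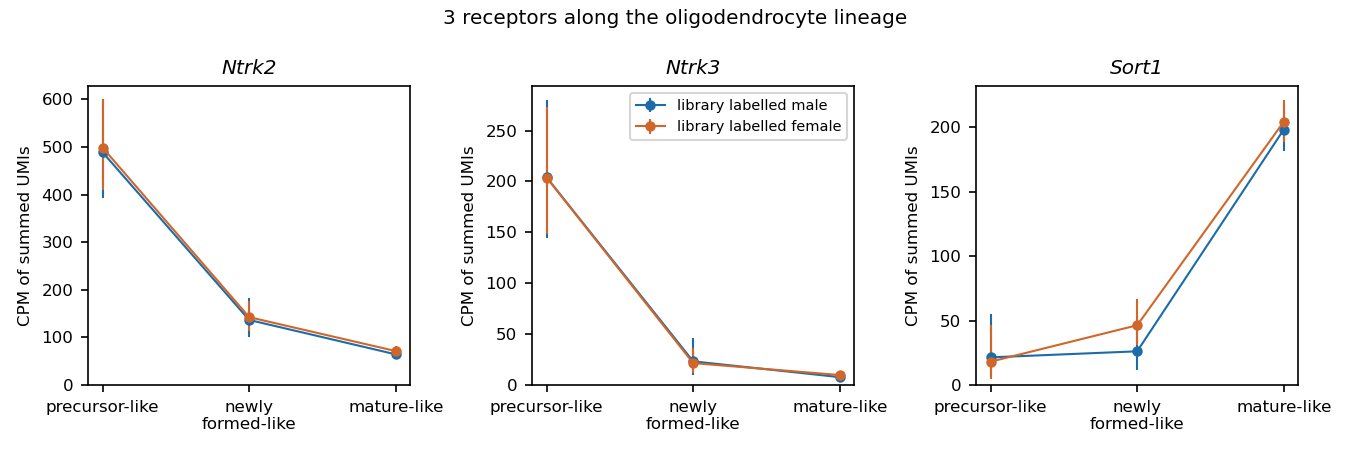
Levels of Ntrk2, Ntrk3 and Sort1 (CPM) in oligodendrocyte precursor-like, newly formed and mature oligodendrocyte-like cells, with a point and an exact 95% Poisson interval for each library. Ntrk2 was at 489 and 498 CPM in precursors and at 64.4 and 71.3 CPM in mature cells, and Sort1 at 21.5 and 18.1 CPM in precursors and at 198 and 204 CPM in mature cells.

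All 8 neuron markers had UMIs in every glial and vascular class. Their summed level was 2.76% and 2.63% of the neuron level in mature oligodendrocyte-like cells, 8.60% and 13.5% in astrocyte-like, 15.9% and 18.0% in oligodendrocyte precursor-like, 23.1% and 46.9% in microglia-like and 18.6% and 50.6% in fibroblast-like cells. Against the same neuron level, Ntrk2 was at 22.0% and 23.6% in mature oligodendrocyte-like cells and 539% and 529% in astrocyte-like cells, and Ntrk3 at 100.02% and 92.3% in precursors, all above the neuron markers there. In microglia-like cells Bdnf (29.7% and 44.7%) and Ntrk3 (20.2% and 66.8%) were close to the neuron markers, and the part of neuronal RNA in these values was not tested. Of 36 pairs of gene and group with 20 or more UMIs, the ratio of the 2 libraries had an interval that left out 1 in 6, and the lowest were Ngfr in the other excitatory neurons (0.256, 0.120 to 0.498) and Ntrk3 in microglia-like cells (0.280, 0.117 to 0.602). The ratio of Ntrk3 was 0.872 (0.815 to 0.932) in inhibitory and 1.61 (1.03 to 2.53) in Hcrt-high neurons.

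Differences between neuron groups were tested with edgeR's quasi-likelihood test on UMIs summed per library and group, with the library as a block and Benjamini-Hochberg adjustment over all genes tested. A log2 fold change is the first group over the second after TMM scaling. P-values set a group difference against how far such differences varied between 2 libraries of pooled littermates, since the block takes up the difference between the libraries themselves. With 1 residual degree of freedom they rest largely on a spread pooled over genes. Between Hcrt-high and Pmch-high neurons and between Bdnf-positive and Bdnf-negative neurons they rest on it wholly. There the variation of a gene's own difference between the libraries carried no weight. The comparisons with the other excitatory neurons share those cells, and 63 and 62 of the Hcrt-high and 48 and 35 of the Pmch-high neurons are also within the excitatory group.

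Inhibitory neurons had far less Bdnf than excitatory neurons, while Ntrk2, Ntrk3 and Sort1 differed by at most 0.20 on the log2 scale. Bdnf was at 7.47 and 7.21 CPM in inhibitory neurons against 58.8 and 61.0 CPM in excitatory neurons, with no overlap of the libraries, a log2 fold change of -3.07 ± 0.11 (SE; 8.41-fold lower, adjusted p = 7.92e-16, edgeR). Ntrk2 was at 304 and 311 CPM in inhibitory neurons and 285 and 300 CPM in excitatory neurons, and the change of 0.03 ± 0.04 did not pass (adjusted p = 0.625, edgeR). Without Hcrt-high and Pmch-high neurons it was 0.14 and passed (adjusted p = 0.0141, edgeR), and with no doublets removed it was -0.0084.

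Ntrk3 was lower in inhibitory neurons, at 191 and 219 CPM against 215 and 226 CPM in excitatory neurons, with ranges that overlapped (log2 fold change -0.15 ± 0.04, adjusted p = 0.0190, edgeR). Sort1 was higher in inhibitory neurons, at 72.1 and 77.1 CPM against 67.3 and 59.7 CPM in excitatory neurons (0.20 ± 0.07, adjusted p = 0.0468, edgeR). The call of Ntrk3 was lost under 5 of 11 alternatives and that of Sort1 under 6. Without Hcrt-high and Pmch-high neurons the Sort1 change was 0.04 (adjusted p = 0.818, edgeR). Ngfr was at 3.29 and 1.59 CPM in inhibitory neurons and 2.05 and 6.998 CPM in excitatory neurons. Its change of -0.98 ± 0.41 did not pass (adjusted p = 0.0939, edgeR), passed under 4 of 10 alternatives, and was 0.66 in the library labelled male alone against -2.10 in the library labelled female alone. Ntf3 did not pass the filter on low counts. In all, 3 of the 5 genes tested were called, where 22.1% of all 13228 genes tested were (9.98% higher and 12.1% lower), and on that background the small changes of Ntrk3 and Sort1 do not stand out.

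**Figure D4:**
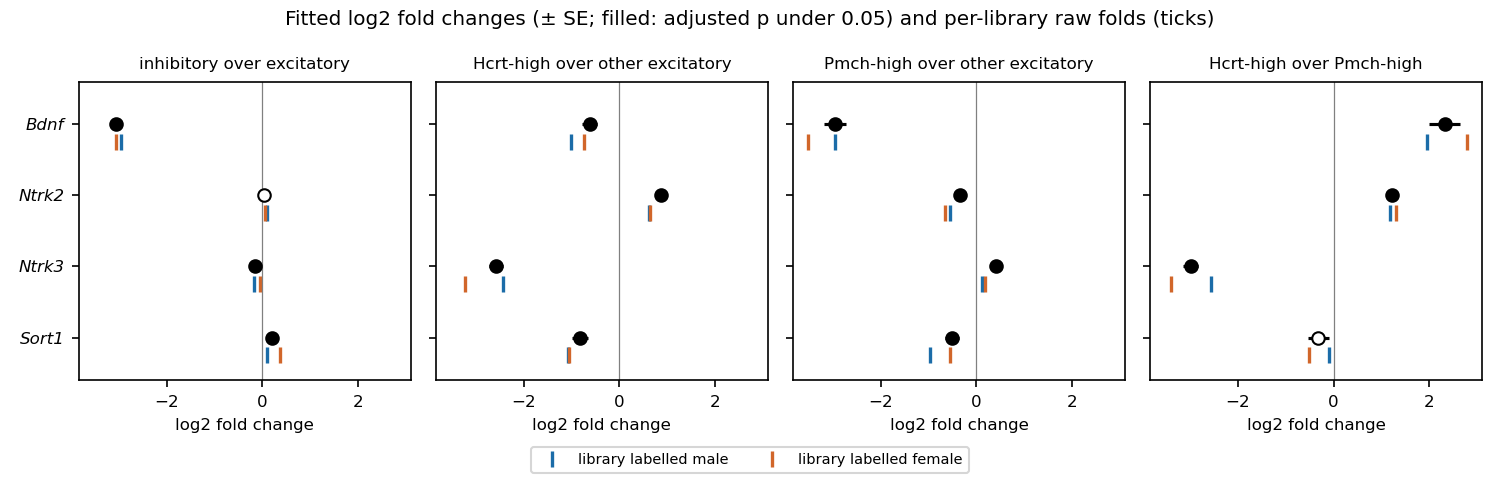
Log2 fold change (with standard error) of Bdnf, Ntrk2, Ntrk3 and Sort1 in the comparisons of neuron groups, with coloured ticks for each library alone before TMM scaling. Bdnf was lower by 3.07 in inhibitory than in excitatory neurons and by 2.97 in Pmch-high than in other excitatory neurons, and Ntrk3 was lower by 2.59 in Hcrt-high than in other excitatory neurons.

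Hcrt-high neurons differed from the other excitatory neurons in both Trk receptors, in opposite directions. Ntrk3 was at 43.9 and 27.3 CPM in Hcrt-high neurons against 241 and 258 CPM in the other excitatory neurons (log2 fold change -2.59 ± 0.15, 6.00-fold lower, adjusted p = 3.42e-29, edgeR). Ntrk2 was at 425 and 443 CPM in Hcrt-high neurons against 277 and 284 CPM in the others (0.88 ± 0.10, 1.84-fold higher, adjusted p = 6.46e-12, edgeR). In neither gene did the libraries of one group overlap those of the other. Both calls held under all 12 alternatives tested.

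Bdnf was lower in Hcrt-high neurons, at 36.0 and 42.1 CPM against 73.5 and 70.3 CPM in the others (-0.62 ± 0.16, adjusted p = 0.000796, edgeR). Sort1 was lower as well, at 36.8 and 32.5 CPM against 78.04 and 68.2 CPM in the others (-0.83 ± 0.16, adjusted p = 1.36e-05, edgeR). These 2 calls were lost with DESeq2 (adjusted p of 0.213 for Bdnf and 0.0712 for Sort1) and with cells thinned to 3000 UMIs (adjusted p of 0.173 and 0.139, edgeR). Of the 4 genes tested, all 4 were called, where 40.8% of 11823 genes were (21.2% higher and 19.6% lower). Hcrt took 2.92% and 3.72% of the UMIs of Hcrt-high neurons, and the median gene had a raw log2 ratio of -0.20 and -0.21 to the other excitatory neurons, which TMM scaling removes. Ngfr and Ntf3 had too few counts for this test and for those with Pmch-high neurons.

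Pmch-high neurons had little Bdnf, at 9.07 and 5.65 CPM against 73.5 and 70.3 CPM in the other excitatory neurons (-2.97 ± 0.23, 7.84-fold lower, adjusted p = 8.28e-07, edgeR), and this call held under all 12 alternatives tested. Ntrk2 was lower, at 187 and 179 CPM against 277 and 284 CPM in the others (-0.34 ± 0.09, adjusted p = 0.00971, edgeR). Sort1 was lower, at 39.8 and 46.2 CPM against 78.04 and 68.2 CPM in the others (-0.52 ± 0.15, adjusted p = 0.0188, edgeR). Ntrk3 was higher, at 261 and 293 CPM against 241 and 258 CPM in the others (0.42 ± 0.08, adjusted p = 0.00170, edgeR).

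All 4 genes tested were thus called between Pmch-high and other excitatory neurons, where 33.7% of 11791 genes were (18.6% higher and 15.1% lower). The call of Ntrk2 was lost with DESeq2 (adjusted p = 0.187) and with Pmch-high neurons that had Slc17a6 alone (adjusted p = 0.0534, edgeR). That of Ntrk3 was lost with thinned cells (adjusted p = 0.0719, edgeR) and with scaling by library totals alone (adjusted p = 0.163, edgeR), and that of Sort1 with DESeq2 (adjusted p = 0.431), the strict cell filter (adjusted p = 0.0787, edgeR) and thinned cells (adjusted p = 0.685, edgeR). Pmch took 7.36% and 6.96% of the UMIs of its neurons, and the median gene had a raw log2 ratio of -0.26 and -0.24.

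The direct comparison of Hcrt-high with Pmch-high neurons gave the clearest contrast in receptors. Ntrk3 was at 43.9 and 27.3 CPM in Hcrt-high neurons against 261 and 293 CPM in Pmch-high neurons (-2.99 ± 0.15, 7.95-fold lower, adjusted p = 1.62e-81, edgeR). Ntrk2 was at 425 and 443 CPM in Hcrt-high neurons against 187 and 179 CPM in Pmch-high neurons (1.23 ± 0.12, 2.34-fold higher, adjusted p = 1.76e-24, edgeR). Bdnf was at 36.0 and 42.1 CPM in Hcrt-high neurons against 9.07 and 5.65 CPM in Pmch-high neurons (2.33 ± 0.32, adjusted p = 9.33e-12, edgeR). The libraries of the 2 groups did not overlap in any of these genes. Sort1, at 36.8 and 32.5 CPM in Hcrt-high and 39.8 and 46.2 CPM in Pmch-high neurons, did not pass (-0.32 ± 0.21, adjusted p = 0.262, edgeR). The 3 calls, of 4 genes tested where 34% of 9683 genes were called (16.2% higher and 17.8% lower), held under every alternative in which the gene could be tested, and Bdnf had too few counts once cells were thinned.

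**Figure D5:**
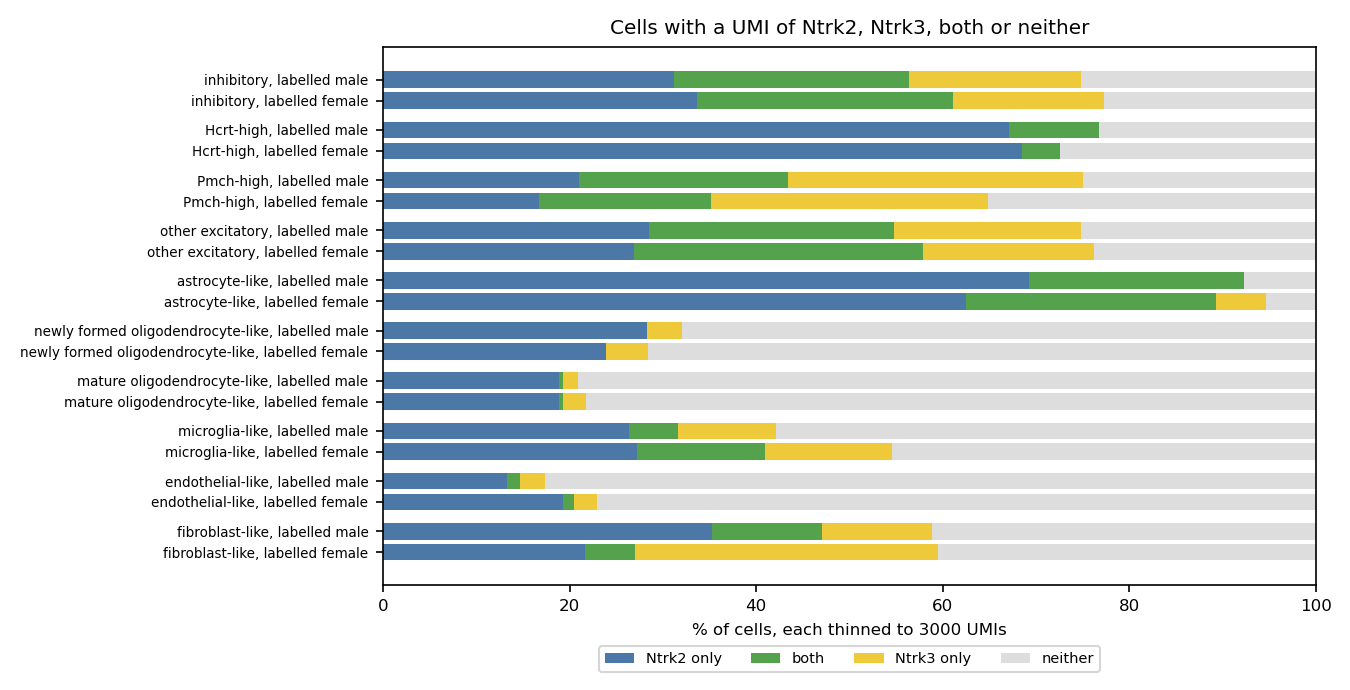
Share of cells (percent) with a UMI of Ntrk2 alone, both receptors, Ntrk3 alone or neither, after each cell was thinned to 3000 UMIs, with 1 bar per library and group of at least 10 thinned cells. Of 73 Hcrt-high neurons in each library, 67.1% and 68.5% had Ntrk2 without Ntrk3 and 0% had Ntrk3 alone, whereas 31.6% and 29.6% of Pmch-high neurons had Ntrk3 alone.

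The combination of receptors in single cells followed these levels. After thinning to 3000 UMIs, 9.59% and 4.11% of Hcrt-high neurons had UMIs of both receptors, 67.1% and 68.5% of Ntrk2 alone, and 0 of 73 cells in each library of Ntrk3 alone, which allows a share of up to 4.11%. In Pmch-high neurons (76 and 54 cells) 22.4% and 18.5% had both, 21.1% and 16.7% had Ntrk2 alone and 31.6% and 29.6% had Ntrk3 alone. Both receptors were found in 25.2% and 27.4% of inhibitory neurons and in 26.2% and 31.0% of the other excitatory neurons. Mature oligodendrocyte-like cells had both in 0.353% and 0.523% of cells and Ntrk2 alone in 18.9% and 18.8%. At this depth a cell with 1 receptor was not shown to lack the other.

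Excitatory neurons with a Bdnf UMI did not differ detectably in Ntrk2, Ntrk3 or Sort1 from those without. After thinning, 100 and 120 neurons were Bdnf-positive and 580 and 643 were Bdnf-negative. Ntrk2 was at 353 and 311 CPM in Bdnf-positive neurons and 288 and 279 CPM in Bdnf-negative neurons (0.20 ± 0.12, adjusted p = 0.803, edgeR). Ntrk3 was at 247 and 214 CPM in Bdnf-positive and 214 and 236 CPM in Bdnf-negative neurons (-0.00039 ± 0.14, adjusted p = 0.99999, edgeR). Sort1 was at 100 and 52.8 CPM in Bdnf-positive and 71.3 and 66.4 CPM in Bdnf-negative neurons (0.09 ± 0.23, adjusted p = 0.987, edgeR). Ngfr had 0 and 0 UMIs in Bdnf-positive and 3 and 21 in Bdnf-negative neurons and was not tested. In unthinned cells it had 0 and 4 UMIs in Bdnf-positive and 14 and 49 in Bdnf-negative neurons and was called lower (-2.99 ± 0.59, adjusted p = 5.61e-05, edgeR). The unthinned split also sorts cells by depth, since detection of Bdnf rises with it. The Ngfr UMIs of all excitatory neurons lay in 8 and 25 cells, with at most 4 and 9 in a cell. None of the 3 genes tested was called by edgeR, none had an unadjusted p under 0.05, and DESeq2 called none, where 0.204% of 9801 genes were called by edgeR (0.0918% higher and 0.112% lower).

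Other genes of the pathway were followed in fixed lists. Between inhibitory and excitatory neurons, 1 of 10 tested genes of the sortilin family and proneurotrophin processing was higher in inhibitory neurons and 4 were lower. Over all genes 9.98% were higher and 12.1% lower. Of 19 Trk adaptors 2 were higher and 1 lower, of 25 kinases and related signalling genes 1 and 3, of 14 partners of p75 1 and 5, and of 12 genes known to respond to BDNF 0 and 3. The list medians lay between -0.08 and 0.05, against 0.01 over all genes. The sorting receptor Sorl1 averaged 145 CPM in inhibitory and 104 CPM in excitatory neurons (0.44 ± 0.05, adjusted p = 6.60e-07, edgeR). Lingo1, a co-receptor of p75, averaged 82.3 and 63.5 CPM in inhibitory and excitatory neurons (0.33), and the phospholipase gene Plcg1 42.3 and 34.5 CPM (0.25). The secreted synaptic pentraxin gene Nptx2 averaged 5.84 CPM in inhibitory and 103 CPM in excitatory neurons (-4.17 ± 0.10, adjusted p = 2.61e-19, edgeR). Lower too were the immediate early gene Fos at 42.7 and 83.3 CPM (-1.02), the sortilin relative Sorcs3 at 38.2 and 56.2 CPM (-0.60) and the ERK1 gene Mapk3 at 82.3 and 104 CPM (-0.38).

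Hcrt-high and Pmch-high neurons carried part of these differences. Without Hcrt-high and Pmch-high neurons, an alternative chosen after seeing the data, Nptx2 averaged 5.58 CPM in inhibitory and 30.5 CPM in excitatory neurons (-2.45 ± 0.15, adjusted p = 7.35e-11, edgeR). Fos averaged 42.7 CPM in inhibitory and 49.3 CPM in excitatory neurons and no longer passed (-0.22, adjusted p = 0.116, edgeR). Lingo1 (0.09, adjusted p = 0.486, edgeR) and Plcg1 (0.18, adjusted p = 0.223, edgeR) did not pass either, while Sorl1 (0.45), Sorcs3 (-0.88) and Mapk3 (-0.21) did. In that fit the processing list had 1 gene higher and 1 lower of 10, the adaptors 1 and 0 of 18, the kinases and related genes 2 and 1 of 25, the p75 partners 0 and 3 of 14 and the BDNF-response genes 1 and 1 of 12. Fewer genes were called over all genes in that fit than with these neurons. The shares given for the full comparison are therefore not its background, and no result about the lists is drawn from these counts.

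In Hcrt-high neurons 6 of 12 tested genes known to respond to BDNF were higher than in the other excitatory neurons and 0 lower, with a median log2 fold change of 0.49 against -0.01 over all genes. The shares over all genes were 21.2% higher and 19.6% lower, near which the adaptor and kinase counts given here lie. Nptx2 averaged 549.7 CPM in Hcrt-high and 30.5 CPM in other excitatory neurons (4.42 ± 0.12, adjusted p = 1.46e-56, edgeR), the neurosecretory peptide precursor gene Vgf 1567 and 182 CPM (3.35 ± 0.13, adjusted p = 9.89e-44, edgeR) and Fos 317 and 49.3 CPM (2.90 ± 0.13, adjusted p = 2.04e-37, edgeR). Fos and its like respond to many stimuli besides BDNF, and Nptx2 was among the 10 leading genes of the Hcrt cluster, so its value describes the cells. Of 10 processing genes 5 were higher and 2 lower, including the proprotein convertase gene Pcsk6 at 55.5 CPM in Hcrt-high and 5.43 CPM in other excitatory neurons (3.605) and Sorcs3 at 13.7 and 70.4 CPM (-2.08). Of 16 adaptors 4 were higher and 3 lower, among them 2 membrane proteins that bind Trk receptors: Islr2, at 5.65 and 45.3 CPM (-2.76), and Slitrk5, at 23.2 and 82.7 CPM (-1.58). Of 25 kinases and related genes 5 were higher and 4 lower, and of 14 partners of p75 6 were higher and 2 lower, with Lingo1 at 19.3 CPM in Hcrt-high and 77.9 CPM in other excitatory neurons (-1.76).

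In Pmch-high neurons 0 of the 12 BDNF-response genes were higher and 5 lower than in the other excitatory neurons, with a median of -1.001 against -0.02 over all genes. The shares over all genes were 18.6% higher and 15.1% lower, near which the adaptor and kinase counts lie. Nptx2 averaged 7.11 CPM in Pmch-high and 30.5 CPM in other excitatory neurons (-1.74 ± 0.32, adjusted p = 0.00110, edgeR), the immediate early gene Egr1 14.5 and 62.8 CPM (-1.73 ± 0.28, adjusted p = 0.000394, edgeR) and Fos 16.1 and 49.3 CPM (-1.23 ± 0.36, adjusted p = 0.0195, edgeR). Of 10 processing genes 0 were higher and 3 lower, with Sorcs3 at 18.5 CPM in Pmch-high and 70.4 CPM in other excitatory neurons (-1.65). Of 25 kinases and related genes 6 were higher and 3 lower, including the calcium-dependent kinase gene Camk4 at 222 and 85.0 CPM (1.66), the PI3-kinase subunit gene Pik3r1 at 143 and 63.3 CPM (1.45) and Nras at 49.0 and 24.8 CPM (1.26). Of 14 p75 partners 6 were higher and 1 lower, with necdin (Ndn) at 679 CPM in Pmch-high and 329.7 CPM in other excitatory neurons (1.31), and of 17 adaptors 3 were higher and 2 lower.

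Directly compared, Hcrt-high neurons had 5 of 7 tested BDNF-response genes higher than Pmch-high neurons and 0 lower, with a median of 2.40 against 0.01 over all genes. The shares over all genes were 16.2% higher and 17.8% lower, near which the adaptor and kinase counts lie. Nptx2 averaged 549.7 CPM in Hcrt-high and 7.11 CPM in Pmch-high neurons (6.15 ± 0.20), Vgf 1567 and 73.1 CPM (4.38 ± 0.14) and Fos 317 and 16.1 CPM (4.01 ± 0.17). Of 10 processing genes 4 were higher and 1 lower, with Pcsk6 at 55.5 and 6.78 CPM (2.97). Of 15 adaptors 2 were higher and 2 lower, of 24 kinases and related genes 3 and 5, and of 11 p75 partners 0 and 4. Lower in Hcrt-high than in Pmch-high neurons were Islr2 at 5.65 and 63.0 CPM (-3.46), Camk4 at 52.4 and 222 CPM (-2.08), Pik3r1 at 34.5 and 143 CPM (-2.06) and Slitrk5 at 23.2 and 51.2 CPM (-1.15). Among Bdnf-positive against Bdnf-negative excitatory neurons, 1 of 8 tested BDNF-response genes was called, Vgf, at 444 CPM in Bdnf-positive and 266 CPM in Bdnf-negative neurons (0.71 ± 0.11, adjusted p = 6.77e-07, edgeR), and 0 genes of the other lists were.

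Across the 11 cell groups, the genes most like each member in level were ranked by the lower Pearson r of the 2 libraries, on log2(CPM + 10), among 11726 genes. The groups share libraries and differ in depth, so these values are descriptions. The gene most like Bdnf was Qrfp, a feeding-related neuropeptide gene of the lateral hypothalamus (r = 0.916 and 0.935), followed by the transcription factor gene Nhlh2 (0.841 and 0.871), Calb1 (0.859 and 0.807) and Hapln4 (0.802 and 0.824). The gene most like Ntrk2 was Clu, an astrocyte-rich clusterin gene (0.955 and 0.966), followed by Msi1 (0.963 and 0.943), Sall2 and Acsl6. Celf2 was most like Ntrk3 (0.895 and 0.961), followed by Plppr4, Mmp17 and Dlg3, and Git1 was most like Sort1 (0.829 and 0.767), followed by Nudt4, Gstp1 and Gpx4. Ngfr and Ntf3 had too few UMIs to be ranked.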

How the data were processed

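Per the submitters' processing notes, the authors made raw UMI counts per gene and barcode with Cell Ranger 2.2.0 on mm10 (GRCm38), and deposited 1 count matrix per library. Barcodes with under 500 genes or over 20% mitochondrial UMIs were left out (163 and 163). The barcodes scoring highest with Scrublet, 0.8% per 1000 barcodes, were removed as doublets (90 and 110). Cells were clustered with scanpy 1.11.5 (2000 variable genes without the 6 members, mitochondrial and sex-linked genes, 30 components, 15 neighbours, Leiden resolution 1), and clusters were named X-like from marker lists. 36 and 44 cells in 3 clusters stayed unnamed. Median depths were 7757 and 8121 UMIs in neuron-like cells.

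UMIs were summed per library and group and tested with edgeR 4.0.16 (R 4.3.3; filterByExpr, TMM, library block, threshold 0.05), and DESeq2 1.42.0 was an alternative. The block pairs sums from the same library of the same animals. The edgeR fit was also run on simulated counts with known changes. Pathway genes named were up to 4 per direction with the largest change, called, at 20 CPM or more in the higher group and with 1 direction in both libraries; some items are not reported here. GENCODE M21 matched 28339 of 28692 gene IDs. The members and lists were chosen with earlier results of these data known. Alternatives were other scaling, filters, clustering, gates, peptide thresholds (0.1% and 1%) and depth, and each library left out.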

Additional observations from a re-analysis of the deposited data

Results flagged for a closer look

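In 3 results the 2 libraries gave opposite directions, and the difference between the libraries was not tested in any of them. Ngfr between inhibitory and excitatory neurons had a log2 fold change of 0.66 in the library labelled male and of -2.10 in the library labelled female, from 26 and 15 UMIs in inhibitory against 14 and 53 in excitatory neurons. Between Bdnf-positive and Bdnf-negative excitatory neurons, Ntrk3 had 0.21 and -0.13, and Sort1 had 0.51 and -0.30, from 30 and 19 Sort1 UMIs in Bdnf-positive neurons.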

How the results depend on the processing

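Of the 6 genes, 3 were called between inhibitory and excitatory neurons, against 1 with DESeq2, 1 with no replicate block and 1 with thinned cells. For Hcrt-high against other excitatory neurons 4 were called, against 2 with DESeq2 and 2 with thinned cells, and for Pmch-high neurons likewise 4 against 2 and 2. Between Bdnf-positive and Bdnf-negative neurons 0 were called, against 1 without thinning, Ngfr, which had too few counts after it. Leaving out the replicate block changed no other call of these genes. Over all genes, the counts called were 2924 between inhibitory and excitatory neurons (560 with DESeq2, 920 with no replicate block, 1144 thinned, 1606 without peptide-high neurons), 4820 for Hcrt-high neurons (1614 with DESeq2, 1589 thinned), 3970 for Pmch-high neurons (1412 and 997), 3297 between Hcrt-high and Pmch-high neurons (860 and 546), and 20 between Bdnf-positive and Bdnf-negative neurons (2 with DESeq2, 422 without thinning).

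The group with the highest level of Bdnf, Ntrk2 and Sort1 was the same under each alternative. Bdnf in the other excitatory neurons was 69.2 CPM as a mean over cells and 61.4 under the strict filter. Ntrk2 in astrocyte-like cells was 1615 as a mean over cells, 1734 thinned, 1303 with no doublets removed, 1676 at resolution 2 and 661 under the strict filter (1000 genes, 10% mitochondrial UMIs), which left 47 and 42 cells. Sort1 in mature oligodendrocyte-like cells was 213 thinned and 177 under the strict filter.

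Some values changed direction. Between inhibitory and excitatory neurons Ntrk2 was -0.0084 with no doublets removed, and Ngfr was 0.66 without the library labelled female and -2.10 without the library labelled male. Between Bdnf-positive and Bdnf-negative neurons Ntrk3 was 0.011 with RLE scaling, 0.018 with DESeq2, 0.0050 with no replicate block, 0.022 with library totals alone (chosen after seeing the data), and 0.21 and -0.13 with one library left out. Ntrk2 was -0.16 under the strict filter, and Sort1 was -0.13 under the strict filter, -0.18 with no doublets removed and between -0.30 and 0.51 with one library left out. The cause of these changes was not tested. Ntf3 and Ngfr are limited by depth, at 11 and 137 UMIs.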
